A study of Mus musculus with 32 samples.

Results

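Metalloproteinases of the MMP family and their inhibitors, the TIMPs, were followed in spinal cord RNA of a mouse model of amyotrophic lateral sclerosis. The 9 genes were the inhibitors Timp1, Timp2, Timp3 and Timp4, the secreted proteinases Mmp2 and Mmp12, and the membrane-bound proteinases Mmp14, Mmp15 and Mmp17, out of 42524 genes in the count table. They were picked by name after their levels across the groups were known, so their levels and differences are given as a description, with no p for a single gene. Which members passed a threshold of the main fits over all genes is stated beside the share of all genes that did, and nothing is read from it. Counts under other settings are given without that share, and nothing is read from them either. All 9 were found in the table and all 9 had enough reads for the fits at both ages. Timp1 at 155 days and Mmp12 at both ages had few reads in WT mice and entered the fits only through G93A mice.

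The study sequenced spinal cord from 32 mice, 4 in each of 8 groups: wild-type (WT) or G93A mice, untreated or given OKN-007, at 90 or 155 days by the labels (the study's text puts the earlier age a few days later). G93A mice carry a human SOD1 transgene with the G93A change and were bred on C57BL/6J, and WT mice were their littermates. OKN-007 is a nitrone compound that the study gave in drinking water. Its text does not state the dose or the starting age for the sequenced mice. In its design, only cohorts on the higher dose were killed at the ages it gives for the sequencing. Within each age the labels number the mice 1 to 4 (WT untreated), 5 to 8 (WT OKN-007), 9 to 12 (G93A untreated) and 13 to 16 (G93A OKN-007), and a number used at both ages names different animals. By the study's design, mice killed at the earlier age and at 155 days formed separate cohorts, so age cannot be told apart from cohort. The transgene was not analysed here, and the mouse Sod1 gene, at 237 to 404 CPM (counts per 1000000 counts of the library), does not check the genotype.

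MMPs are zinc enzymes that cut proteins of the matrix between cells, and most are made as inactive precursors. TIMPs bind the active site and block it, and TIMP3, which is held in the matrix, also blocks several ADAM and ADAMTS enzymes. TIMP2 has a further role, since together with the protein of Mmp14 it brings the precursor of MMP2 to the cell surface for activation. In the central nervous system Timp1 is known as a gene induced in reactive astrocytes, and Mmp12, the macrophage elastase, as a gene of activated macrophages and microglia.

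Libraries held 19701722 to 30138257 counts, with a median of 26658755, and 3 counts in the smallest equalled 0.152 CPM. All listed markers of microglia, astrocytes, oligodendrocytes and motor neurons were detected in every group, and Xist at 252 to 438 CPM beside Kdm5d at 0 to 0.0407 CPM read as female in all 32 mice. Liver genes summed to 190 CPM in mouse 12 and 133 CPM in mouse 15 at 155 days, and to at most 76.8 CPM elsewhere. Caudal Hox genes, which mark the level along the cord, summed to 84.1 to 166 CPM in WT mice and 4.26 to 82.2 CPM in G93A mice at 155 days, so Hox level and genotype went together. Where along the cord each piece was taken is not stated, and neuronal markers were lower in the same G93A mice.

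Timp1 (ENSMUSG00000001131, chrX:20870166-20874735, plus strand, GRCm38) lies inside an intron of Syn1, a synapsin gene on the opposite strand, and shares no exon bases with it. Timp3 (ENSMUSG00000020044, chr10:86300372-86349506) lies in the same way within Syn3, with 1733 shared exon bases, and Timp4 (ENSMUSG00000030317, chr6:115241892-115252205) within Syn2, with 90. Timp2 (ENSMUSG00000017466, chr11:118301069-118355740) holds the gene Cep295nl, with no shared exon bases. Mmp12 (ENSMUSG00000049723, chr9:7344381-7369499) stands in the row of MMP genes on chromosome 9 and shares 157 exon bases with Mmp1b, which was not analysed here. Mmp2 (ENSMUSG00000031740, chr8:92827291-92853420), Mmp14 (ENSMUSG00000000957, chr14:54431612-54445364), Mmp15 (ENSMUSG00000031790, chr8:95352268-95375080) and Mmp17 (ENSMUSG00000029436, chr5:129584169-129611099) overlapped no annotated gene. Whether the counting used strand is not stated, so reads in shared exon bases may be split between partners.

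Timp1 and Mmp12 spanned the widest range of levels over the 8 groups, so the sequence upstream of their starts is shown. RefSeq (GRCm38.p6) gave a promoter for 7 of the 9 genes, in 8 windows, since Mmp12 had 2 starts. The 250 bases before each start are written 5′ to 3′ on the gene's strand, and capitals mark matches to AGGAAG (an ETS motif) or TGANTCA (an AP-1 motif) on either strand.
Timp1, chrX:20869916-20870165, plus strand: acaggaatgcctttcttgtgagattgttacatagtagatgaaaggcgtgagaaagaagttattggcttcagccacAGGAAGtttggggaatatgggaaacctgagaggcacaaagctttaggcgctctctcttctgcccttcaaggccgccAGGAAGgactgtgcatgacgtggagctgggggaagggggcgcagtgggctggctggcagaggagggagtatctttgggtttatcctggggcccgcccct
Mmp12, upstream start, chr9:7344147-7344396, plus strand: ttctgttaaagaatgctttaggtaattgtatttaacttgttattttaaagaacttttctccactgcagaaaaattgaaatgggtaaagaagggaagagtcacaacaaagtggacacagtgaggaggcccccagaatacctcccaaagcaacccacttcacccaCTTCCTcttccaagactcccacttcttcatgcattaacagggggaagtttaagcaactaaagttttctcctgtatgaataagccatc
Mmp12, downstream start, chr9:7347124-7347373, plus strand: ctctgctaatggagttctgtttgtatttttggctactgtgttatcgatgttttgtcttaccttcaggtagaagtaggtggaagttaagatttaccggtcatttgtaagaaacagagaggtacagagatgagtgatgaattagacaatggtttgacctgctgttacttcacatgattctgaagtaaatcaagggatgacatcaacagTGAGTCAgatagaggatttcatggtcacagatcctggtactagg
The Timp1 window held 2 ETS matches, at -175 to -170 and -99 to -94 from the start, and the upstream Mmp12 window held 1 on the opposite strand, at -87 to -82. The downstream Mmp12 window held an AP-1 match (TGAGTCA) at -44 to -38, and no other window of a member held TGANTCA. Of 32817 mouse promoter windows of this length, 6.75% held TGANTCA and 29.5% held AGGAAG. A STAT motif (TTCNNNGAA) and a TATA box (TATAAA) were in no window of a member, against 7.01% and 12.4% of all windows, and a RUNX motif (TGTGGT) was in that of Mmp14, against 14%. Such matches describe letters and not binding.

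Timp1 was the inhibitor with the largest fold difference between genotypes at 155 days. In WT untreated mice its level was 0.112, 0.347, 0.0382 and 0.164 CPM, from 1 to 8 reads per mouse. In G93A untreated mice it was 13.7, 20.8, 27.5 and 11.6 CPM. Every G93A mouse was above every WT mouse, and the fitted log2 fold change was 6.82 ± 0.36 (SE, n = 4 per group). With OKN-007 the separation was as wide: WT mice had 0.194 ± 0.0216 CPM (SD, n = 4), G93A mice had 20.1, 17.0, 18.7 and 12.99 CPM, and the log2 fold change was 6.48 ± 0.35.

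At 90 days Timp1 was uneven among G93A mice. Untreated G93A mice 9 to 12 had 0.461, 2.84, 3.13 and 0.378 CPM, and WT untreated mice had 0.331, 0.555, 0.409 and 0.200 CPM. Mice 10 and 11 were high while mice 9 and 12 lay within the WT range, so the groups overlapped, with a log2 fold change of 2.16 ± 0.66. G93A mice 13 to 16, given OKN-007, had 0.348, 0.630, 1.48 and 1.75 CPM, of which mice 15 and 16 were above all WT mice.

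Mmp12, an elastase, followed Timp1 closely. At 155 days G93A untreated mice had 19.5, 19.1, 15.5 and 12.8 CPM, and G93A mice given OKN-007 had 22.1, 18.9, 16.3 and 16.9 CPM. WT mice had 0 to 3 reads each, which is at the limit of this depth. Set against 3 counts in the smallest library of the WT group, the mean of Mmp12 was at least 130-fold higher in untreated G93A mice and at least 157-fold higher in G93A mice given OKN-007.

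At 90 days Mmp12 was again high in some G93A mice and near the limit in others. It stood at 0.538, 2.16, 2.62 and 0.0688 CPM in mice 9 to 12 and at 0.387, 0.0788, 1.33 and 1.75 CPM in mice 13 to 16, while WT mice had 0 to 4 reads each. The groups were apart with OKN-007, where the mean of 0.887 CPM was at least 6.31-fold above the 3-count limit, although mouse 14, with 2 reads, was below that limit. Untreated mice overlapped through mouse 12, which also had 2 reads.

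Marker levels varied along with these 90-day values. Summed microglial markers were 455, 663, 653 and 417 CPM in mice 9 to 12 and 514, 499, 593 and 589 CPM in mice 13 to 16, against 404 to 495 CPM in WT mice. Mice 10, 11, 15 and 16 had the 4 highest values of the G93A mice for Timp1, for Mmp12 and for this sum. Caudal Hox sums were 60.5, 76.2, 63.0 and 29.4 CPM in mice 9 to 12 and 7.58, 5.95, 75.3 and 83.7 CPM in mice 13 to 16, so the treated mice low and high for Timp1 also differed in Hox level, and mouse 10 held Schwann cell genes at 212 CPM. The part of these differences in the 90-day levels was not tested.

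**Figure D1:**
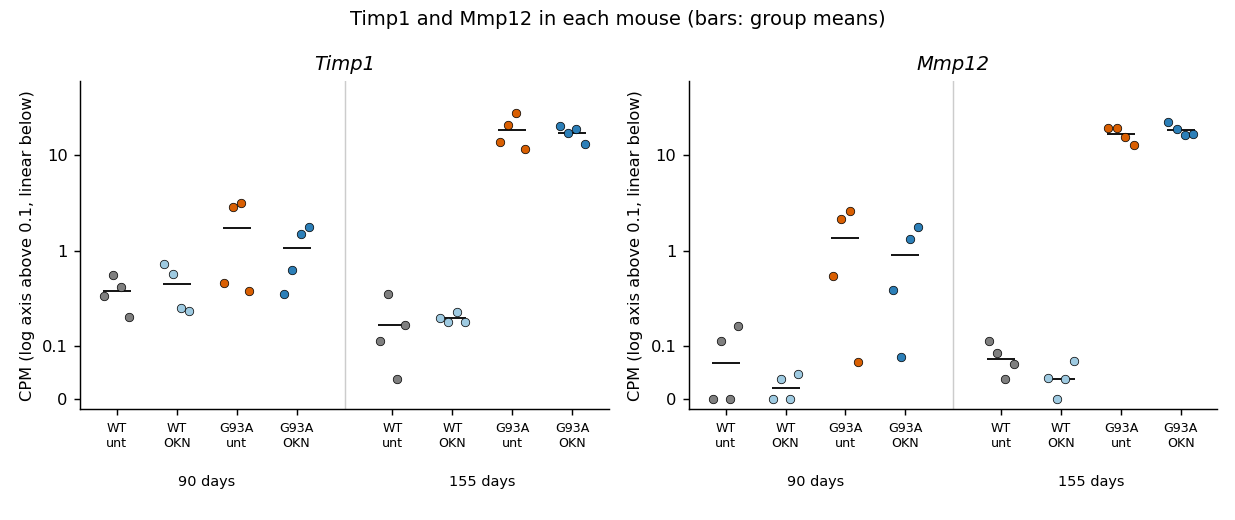
Levels of Timp1 and Mmp12 in CPM for each mouse (points) in WT and G93A mice, untreated (unt) or given OKN-007 (OKN), at both ages, with group means as bars; the axis is logarithmic above 0.1 CPM and linear below it. At 155 days all G93A mice lay at 11.6 CPM or more and all WT mice at 0.347 CPM or less, and at 90 days the G93A mice were spread from 0.0688 to 3.13 CPM.

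Timp2 had the highest level of the inhibitors per length of transcript in every group, and it was higher at the later age in both genotypes. WT untreated mice had 253, 293, 271 and 219 CPM at 90 days and 369, 392, 371 and 366 CPM at 155 days, with no overlap and a log2 fold change of 0.53 ± 0.09. Oligodendrocyte markers (7 of 7 detected) summed to 33075 to 39952 CPM in the WT untreated mice of 90 days and to 21596 to 23707 CPM in those of 155 days, and neuron markers (7 of 7) to 2213 to 2703 and 2943 to 3494 CPM. Most of the neuron sum was Snap25, with means of 1651 and 1968 CPM. Rbfox3 had means of 227 and 219 CPM, and the other neuron markers had higher means at 155 days. The part of oligodendrocytes and neurons in the change of Timp2 was not tested. G93A untreated mice went from 255 ± 5.49 to 493 ± 56.3 CPM, a log2 fold change of 0.95 ± 0.09. In the order of group means, both G93A groups of 155 days therefore stood on top, then both WT groups of 155 days, then the 4 groups of 90 days, with gaps between these 3 tiers and overlap within them.

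Between genotypes Timp2 differed at the later age. At 155 days untreated G93A mice had 470, 519, 555 and 427 CPM, all above the WT mice, by a log2 fold change of 0.41 ± 0.09. With OKN-007 it was 0.52 ± 0.09, again with no overlap. At 90 days the difference in untreated mice was -0.02 ± 0.08 on the log2 scale.

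Timp3, the matrix-bound inhibitor, varied least of the 4. Its group means lay between 143 and 196 CPM, and each group overlapped its neighbour in the order of the means. At 155 days the log2 fold change of G93A over WT mice was 0.23 ± 0.10 untreated and 0.19 ± 0.10 with OKN-007, with overlap in both.

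Timp4, an inhibitor known mainly from brain and heart, depended on a single animal. Untreated G93A mice 9 to 12 had 76.4, 84.6, 231 and 69.9 CPM at 155 days, and WT untreated mice had 62.5, 74.9, 63.3 and 74.6 CPM. Mouse 11 alone was far above the rest. The log2 fold change was 0.76 ± 0.26 with mouse 11 and 0.18 ± 0.09 without it. With OKN-007 the G93A mice had 91.5, 86.3, 106 and 82.4 CPM, all above the WT mice at 59.2 to 70.4 CPM, with a log2 fold change of 0.52 ± 0.26. Mouse 11 also had the highest Timp1 and Timp2 and the lowest Timp3, Mmp15 and Mmp17 of its group, and its microglial sum of 2877 CPM was the highest of all mice.

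Per length of transcript, the TIMP pool was mostly Timp2 in each group. On RPKM (CPM per kilobase of exon), Timp2 made up 75.2% ± 1.96 (SD, n = 4) of the summed TIMPs in WT untreated mice at 155 days and 67.0% ± 3.79 in G93A untreated mice. Timp1 made up 0.144% ± 0.113 and 10.6% ± 2.45 in the same groups, and 10.3% ± 1.24 in G93A mice given OKN-007. On this scale its share in untreated G93A mice was near those of Timp4 (9.79% ± 4.73) and Timp3 (12.6% ± 3.17). On the mean length of coding transcripts it was 5.90% against 9.68% for Timp4 and 21.4% for Timp3, and on counts 2.20% against 13.5% and 23.7%. At 90 days the Timp1 share was 0.417% ± 0.112 in WT untreated and 1.92% ± 1.67 in G93A untreated mice. The size of a share thus depends on the length used.

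**Figure D2:**
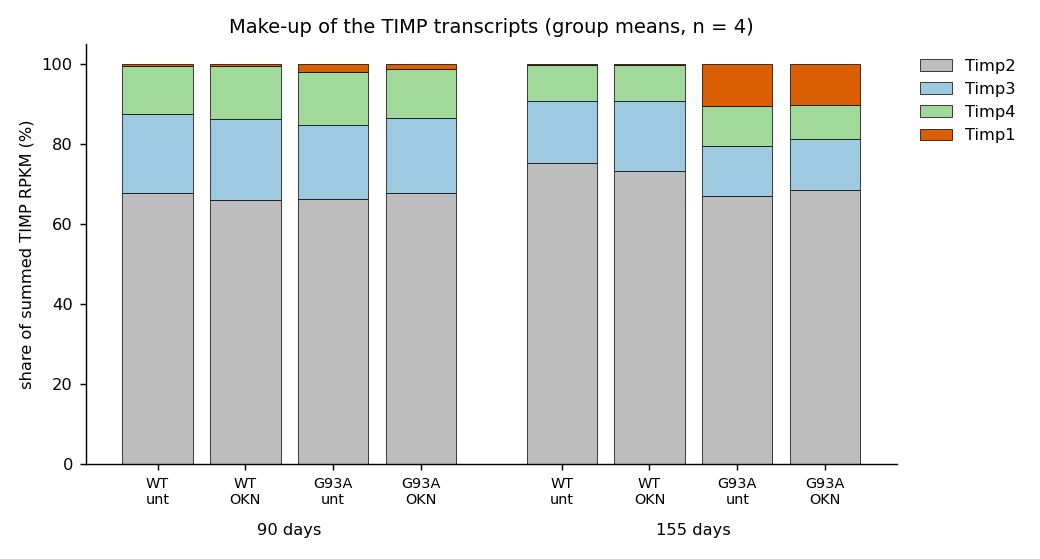
Share of each TIMP in the summed TIMP RPKM, in percent, as stacked means of 4 mice for WT and G93A mice, untreated (unt) or given OKN-007 (OKN), at both ages. Timp2 is the largest share in every group, and the Timp1 share is 10.6% and 10.3% in the G93A groups at 155 days.

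Mmp2, a gelatinase, was a low-level gene that was higher in G93A mice at 155 days. WT untreated mice had 3.54, 3.08, 4.20 and 3.02 CPM, and G93A untreated mice had 8.01, 8.11, 7.59 and 6.61 CPM. The groups were apart, with a log2 fold change of 1.14 ± 0.14 untreated and 1.21 ± 0.14 with OKN-007. At 90 days untreated G93A mice had 3.42 ± 0.764 CPM against 4.58 ± 1.53 CPM in WT mice, with overlap. The WT group of 90 days included mouse 3 at 6.81 CPM, whose Schwann cell genes summed to 1124 CPM and whose fibroblast markers summed to 201 CPM, against 74.5 to 84.0 CPM in the other mice of its group. The part of these cells in its Mmp2 level was not tested.

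Mmp14, the membrane enzyme that activates the precursor of MMP2, was higher in the same groups as Mmp2. At 155 days it was at 31.5, 30.9, 25.6 and 19.8 CPM in WT untreated mice and at 39.7, 60.9, 62.8 and 43.5 CPM in G93A untreated mice. The groups were apart, with a log2 fold change of 0.95 ± 0.15. With OKN-007 G93A mice had 60.2 ± 5.85 CPM and WT mice 25.2 ± 1.56 CPM, a log2 fold change of 1.29 ± 0.15.

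The other membrane-bound members went the opposite way. Mmp15, which spans the membrane as Mmp14 does, was at 51.4, 57.2, 53.9 and 45.8 CPM in WT untreated mice and at 35.2, 37.9, 24.6 and 38.6 CPM in G93A untreated mice at 155 days, a log2 fold change of -0.59 ± 0.12. Mmp17, which is anchored through a lipid, was at 32.2, 38.3, 31.7 and 30.6 CPM and at 24.8, 20.5, 17.3 and 27.8 CPM in the same groups, a log2 fold change of -0.54 ± 0.13. Both were lower in every G93A mouse than in any WT mouse. With OKN-007 the log2 fold changes were -0.58 ± 0.12 for Mmp15 and -0.60 ± 0.13 for Mmp17, also with no overlap.

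**Figure D3:**
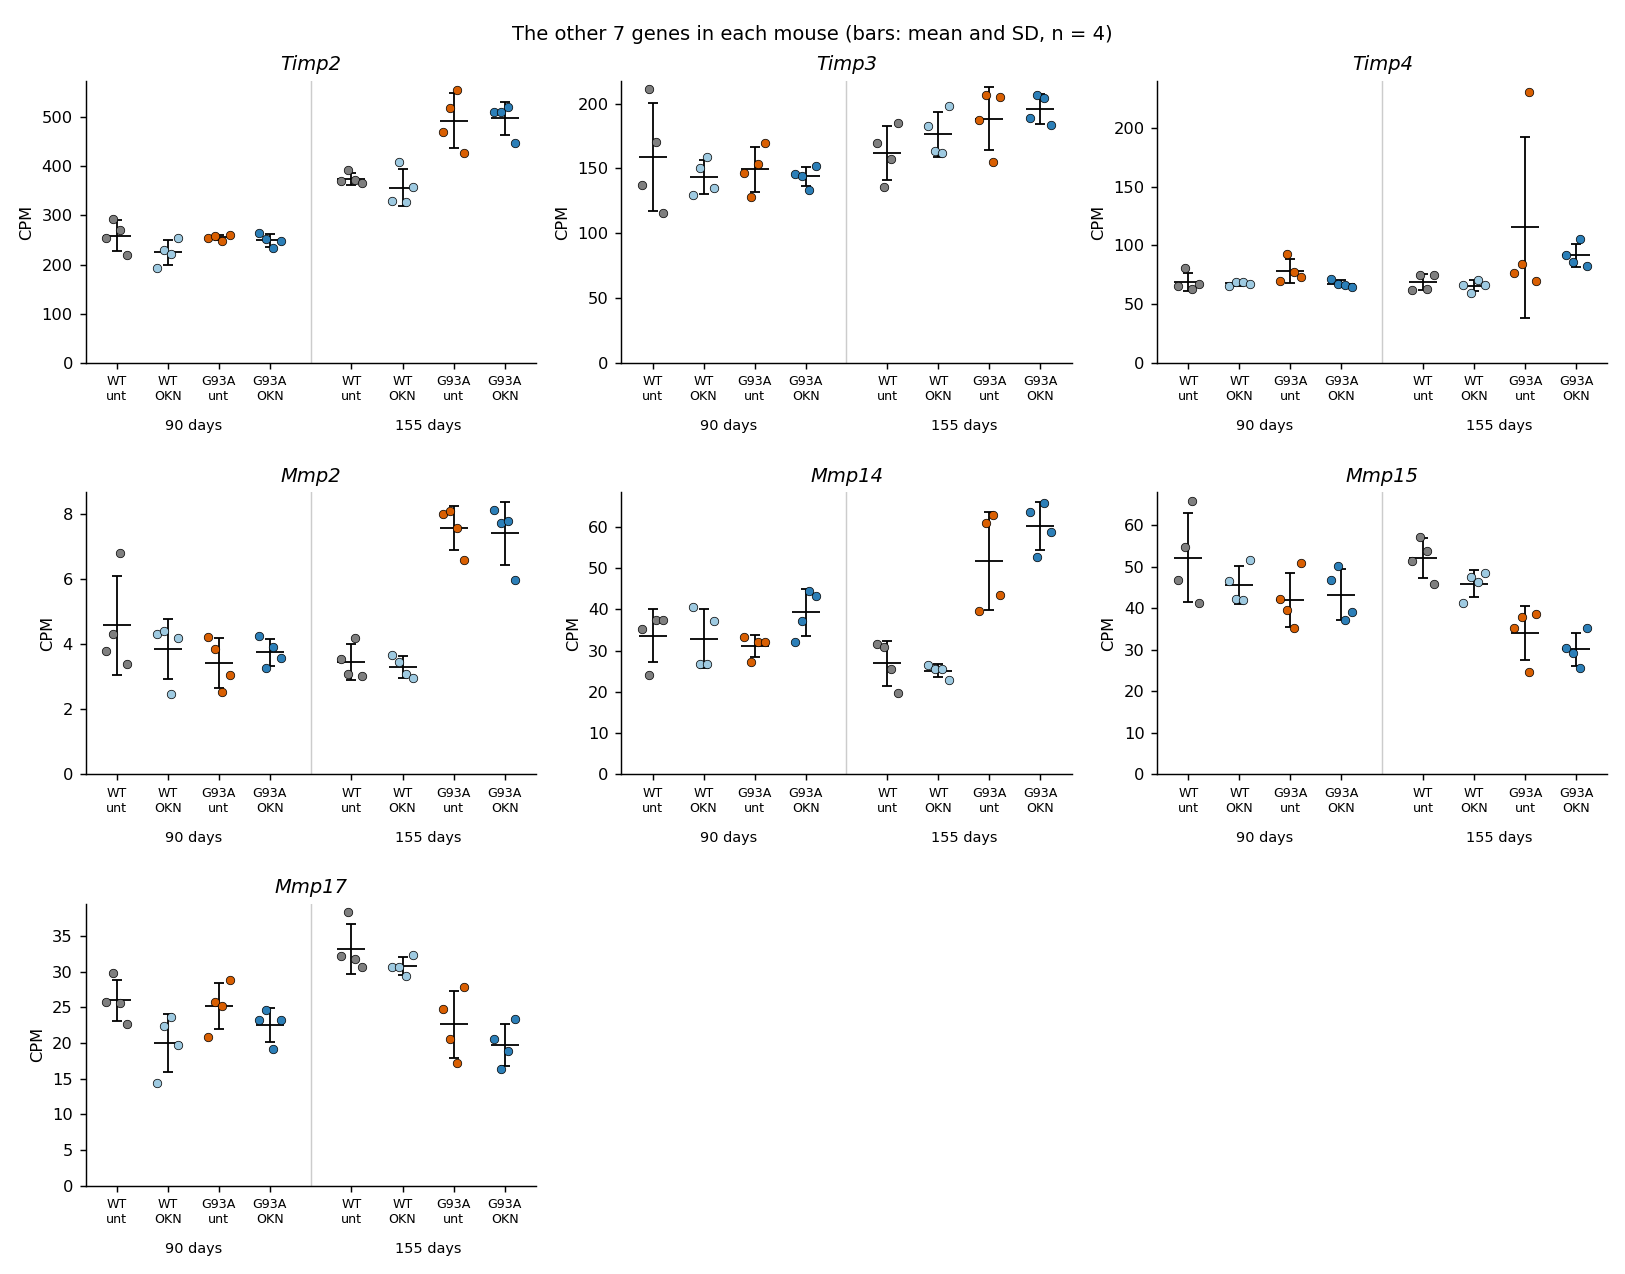
Levels of Timp2, Timp3, Timp4, Mmp2, Mmp14, Mmp15 and Mmp17 in CPM for each mouse (points) by group and age (unt, untreated; OKN, OKN-007), with mean and SD of 4 mice as bars and axes from 0. Timp2, Mmp2 and Mmp14 are higher and Mmp15 and Mmp17 lower in G93A than in WT mice at 155 days, and Timp4 has a single mouse at 231 CPM.

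At the threshold of edgeR's quasi-likelihood test (Benjamini-Hochberg adjusted p under 0.05 over 18675 genes), 6 of the 9 members were higher and 2 lower in untreated G93A mice at 155 days, where 39.5% of all genes passed (21.3% higher and 18.2% lower). The groups did not overlap for 7 members, as for 32.7% of all genes. With OKN-007 5 were higher and 2 lower, where 41.5% of all genes passed (23.3% and 18.2%), and the groups were apart for 8 members and 44.4% of all genes. Averaged over both treatments all 9 passed, 7 higher and 2 lower, where 54.7% of all genes did (28.8% and 25.8%). Since the members were picked with these levels known, nothing is read from these counts. They also hold Timp1 and Mmp12, which entered the fits only through G93A mice. With a caudal Hox score in the fit the count in untreated mice was 8 and the log2 fold changes of Timp1 and Mmp15 were 6.85 ± 0.41 and -0.74 ± 0.15, and without mice 12 and 15 the count was 8 as well.

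At 90 days 0 of 9 members passed in either genotype comparison, as did 0% of the 18899 genes tested, and DESeq2 also called 0. At an unadjusted p under 0.05 there were 3 members in untreated mice (Timp1, Mmp12 and Mmp15), beside 5.96% of all genes, and 1 with OKN-007 (Mmp12), beside 3.95%. The groups were apart for 0 members in untreated mice and for 1 with OKN-007, beside 2.39% and 2.85% of all genes. Averaged over treatments, edgeR called 0 members and 0.0265% of all genes, with 2 members (Timp1 and Mmp12) and 6.61% of all genes at an unadjusted p under 0.05. DESeq2 called both of these members there, and its share of all genes is not given here.

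The change with age was measured in a fit of all 32 mice over 19829 genes, and age cannot be told apart from cohort. The caudal Hox score, a mean of log2(CPM + 1), is given beside it. In WT untreated mice the score was 2.76 ± 1.02 (SD, n = 4) at 90 days and 3.41 ± 0.563 at 155 days. In G93A untreated mice the score was 2.79 ± 0.481 and 1.74 ± 1.36. In WT untreated mice 1 member passed, Timp2, where 24.9% of all genes did. In G93A untreated mice 7 passed, all higher at 155 days, where 33.7% of all genes passed and 21% were higher. Mmp15 and Mmp17 had -0.30 ± 0.14 and -0.16 ± 0.14 (log2), and for Timp4 the value of 0.56 ± 0.21 became -0.02 ± 0.10 without mouse 11. The genotype difference itself changed between the ages for 4 members, where 21.2% of all genes passed (Timp2 did not without mouse 11 of 155 days), by 4.69 ± 0.93 (log2) for Timp1, 0.41 ± 0.13 for Timp2, 1.55 ± 0.27 for Mmp2 and 1.05 ± 0.23 for Mmp14. For Mmp12, with few reads in WT mice at both ages, it was 3.52 ± 1.79 and did not pass.

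OKN-007 was compared with no treatment within each genotype and age. At 155 days in G93A mice the log2 differences of the 9 members lay between -0.32 ± 0.26 (Timp4) and 0.23 ± 0.14 (Mmp14). Timp1 differed by -0.08 ± 0.21 and Mmp12 by 0.16 ± 0.14, so treated and untreated G93A mice lay within each other's spread. Without mouse 11 the Timp4 difference was 0.26 ± 0.09, with the opposite sign. At 90 days in G93A mice Timp1 differed by -0.66 ± 0.60 and Mmp12 by -0.57 ± 0.77, with overlap.

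By edgeR's test 0 of 9 members passed in each of the 4 treatment comparisons, where 0% of all genes did, and DESeq2 called 0 members too. At 90 days and an unadjusted p under 0.05 there were 2 members in G93A mice (Timp4 at -0.21 ± 0.09 and Mmp14 at 0.33 ± 0.16, log2), beside 5.56% of all genes, and 2 in WT mice (Timp2 at -0.21 ± 0.08 and Mmp17 at -0.38 ± 0.13), beside 4.07%. At 155 days there were 0 in G93A and 0 in WT mice, beside 4.04% and 2.94%. The treated and untreated groups overlapped for all 9 members in the 4 comparisons; the share of all genes with groups apart was 2.87% and 2.03% at 90 days and 3.08% and 1.83% at 155 days, in G93A and WT mice. The interactions of genotype and treatment gave 0 members by edgeR and by DESeq2, and 0 at an unadjusted p under 0.05, beside 2.81% of all genes at 90 days and 2.34% at 155 days.

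**Figure D4:**
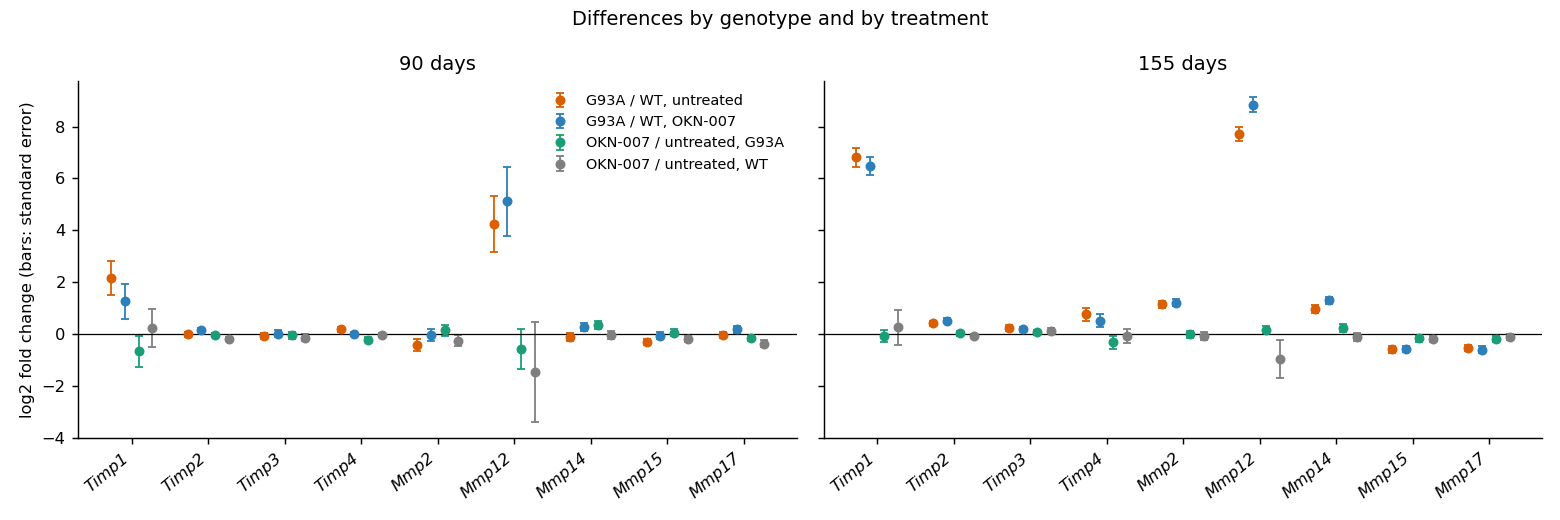
Log2 fold changes with standard errors for the 9 members at 90 and 155 days, for G93A against WT mice (untreated and with OKN-007) and for OKN-007 against untreated mice (in G93A and in WT). The genotype differences at 155 days range from -0.60 for Mmp17 to 8.84 for Mmp12, a fitted value that rests on 0 to 2 reads per WT mouse, while the treatment differences in G93A mice at 155 days lie between -0.32 and 0.23.

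Other genes of the same system came from 6 lists with 93 genes, of which 80 were tested at 155 days. In untreated G93A mice 44 were higher and 14 lower, where 39.5% of all genes passed (21.3% higher and 18.2% lower). Lists are described below by such counts and by their median log2 fold change, beside a median of 0.00 over all genes. The lists were chosen with earlier results of these data known. Their counts, medians and adjusted p are therefore a description, and nothing is read from them. In bulk tissue more cells of a type and more RNA per cell cannot be told apart. Microglial markers (9 of 9 detected) summed to 1565 to 2877 CPM in G93A untreated and 347 to 437 CPM in WT untreated mice at 155 days, and astrocytic markers (8 of 8) to 13744 to 17278 and 4659 to 5173 CPM. Most of the astrocytic difference was Gfap, with means of 11452 and 2189 CPM. The other astrocytic genes differed less by fold, from S100b (544 and 524 CPM) to Sox9 (125 and 45.6 CPM). Motor neuron markers (7 of 7) summed to 154 to 180 and 262 to 317 CPM, and a list of further macrophage genes (6 of 6) to 3.27 to 5.21 and 2.46 to 3.15 CPM. Most of the latter sum came from Mrc1 (means of 1.79 and 1.25 CPM) and Cd163 (1.37 and 1.12 CPM). Ccr2 (0.365 and 0.127 CPM), Ly6c2 (0.165 and 0.0900 CPM) and Plac8 (0.0366 and 0.0718 CPM) were near the limit of this depth. The part of these cell types in the levels of members and listed genes was not tested.

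Of the other MMPs, 8 of 18 were tested, 3 rose and 1 fell, with a median of -0.04. Mmp19 rose from 1.11 ± 0.440 to 12.4 ± 4.28 CPM (SD, n = 4; log2 3.46 ± 0.27, adjusted p = 7.66e-09 by edgeR). Mmp11 rose by 0.94 ± 0.28 and Mmp28 by 0.43 ± 0.15 on the log2 scale. Mmp9, a gelatinase known in spinal cord from fast motor neurons, fell from 8.87 ± 0.752 to 2.87 ± 0.249 CPM (log2 -1.61 ± 0.14, adjusted p = 3.01e-08). The gelatinases Mmp2 and Mmp9 thus had opposite directions. In the row of MMP genes around Mmp12 no other gene analysed reached 1 CPM in any mouse: the highest value was 0.914 CPM for Mmp8, and Mmp3, whose start is 101.4 kb from that of Mmp12, stayed at or below 0.414 CPM.

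Among 11 tested ADAM genes, membrane proteins of which some release other proteins from the cell surface, 6 rose and 3 fell (median 0.28). Adam8 rose by 1.55 ± 0.22 (adjusted p = 2.16e-05), Adam33 by 1.15 ± 0.23 and Adam17, which releases TNF, by 0.76 ± 0.09 on the log2 scale. Adam23 fell by 0.76, Adam19 by 0.57 and Adam22 by 0.47; Adam22 and Adam23 are neuronal proteins without protease activity. Of 18 tested ADAMTS genes 4 rose and 4 fell, with a median of -0.05. Adamts1, which cuts lecticans, went from 27.7 ± 7.91 to 62.4 ± 14.3 CPM (log2 1.19 ± 0.20, adjusted p = 1.12e-04). Adamts14 and Adamts7 rose by 1.33 ± 0.36 and 1.14 ± 0.38 with means under 1 CPM, and Adamts3, Adamts18 and Adamts2 fell by 0.78, 0.69 and 0.54.

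Activators and regulators of MMPs had 14 genes higher and 3 lower of 20, with a median of 0.91. Plau, the urokinase that makes plasmin, an activator of MMP precursors, had 1.70 CPM in WT and 34.2 CPM in G93A mice (log2 4.34 ± 0.24, adjusted p = 1.18e-10). Its receptor Plaur rose by 3.29 ± 0.43 on the log2 scale, so enzyme and receptor rose together. The testicans Spock3, Spock2 and Spock1, proteoglycans of neural tissue, fell by 0.74, 0.72 and 0.43.

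Substrates had 6 genes higher and 3 lower of 12 (median 0.59). Cd44, a hyaluronan receptor, rose by 2.75 ± 0.15 (adjusted p = 8.88e-11), Spp1 (osteopontin) by 2.31 ± 0.16 and Tnc (tenascin C) by 2.09 ± 0.21 on the log2 scale. Acan and Bcan, lecticans of the neural matrix, and Col4a2 of the basement membrane fell by 0.70, 0.55 and 0.45. All 11 tested inducers of these genes rose, with a median of 2.84. Fosl1, a subunit of AP-1, went from 0.136 ± 0.0974 to 3.71 ± 1.36 CPM (log2 4.69 ± 0.39, adjusted p = 1.87e-08). The cytokines Tnf and Osm rose by 3.66 ± 0.59 and 3.40 ± 0.40 on the log2 scale. Tnf had means of 0.0592 CPM in WT and 0.770 CPM in G93A mice, and Osm 0.129 and 1.34 CPM. Genes at such WT levels, Fosl1 among them, entered the fits only through G93A mice. The count and the median of the inducers therefore depend in part on this filter. The synapsin genes that hold Timp1, Timp3 and Timp4 all fell, Syn1 by 0.53, Syn3 by 0.83 and Syn2 by 0.50 on the log2 scale (adjusted p = 5.77e-04, 0.00540 and 2.52e-04), while Timp1, within Syn1, was higher.

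**Figure D5:**
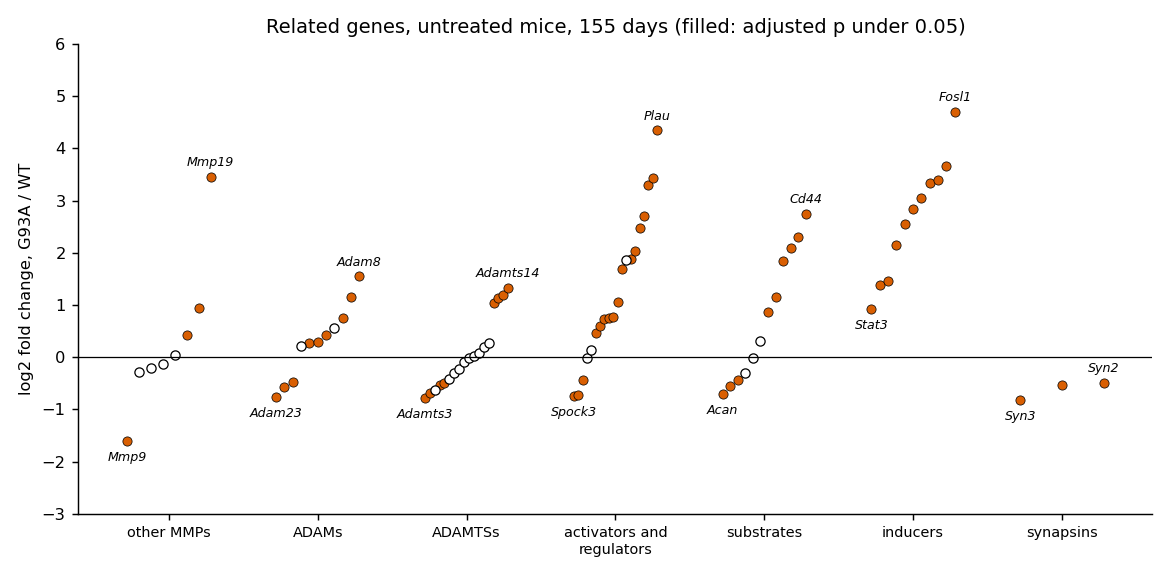
Log2 fold change of G93A over WT in untreated mice at 155 days for each tested gene of 7 lists related to MMPs and TIMPs (points; filled where adjusted p is under 0.05), with the lowest and the highest gene of most lists named. All 11 inducers lie above 0, all 3 synapsins below, and 4 ADAMTS genes rose and 4 fell. Fosl1, Tnf and Osm, among the inducers, had enough reads for the fits only through G93A mice.

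With OKN-007 the genotype comparison at 155 days gave 45 of the 80 genes higher and 18 lower, beside 23.3% and 18.2% of all genes. At 90 days 0 of 77 tested genes passed in either genotype comparison by edgeR, as did 0% of all genes, with 10 at an unadjusted p under 0.05 in untreated mice and 9 with OKN-007, beside 5.96% and 3.95% of all genes. DESeq2 called 2 and 0, and its share of all genes is not given here. Averaged over treatments 1 passed, beside 0.0265% of all genes, Thbs2 (thrombospondin 2), named here after its values were seen. Its level was 16.2, 19.7, 16.4 and 16.5 CPM in WT untreated and 22.6, 26.8, 31.6 and 24.3 CPM in G93A untreated mice, with no overlap. With OKN-007 it was 19.6, 20.5, 17.4 and 22.7 CPM in WT and 20.8, 27.3, 30.1 and 29.3 CPM in G93A mice, where the groups overlapped. The log2 fold change was 0.52 ± 0.09 over both treatments (adjusted p = 0.0452 by edgeR), and the count fell to 0 with RLE factors and in 11 of the 16 fits that left out a mouse. In the comparisons of OKN-007 with no treatment 0 listed genes passed by edgeR or DESeq2, with 2 and 4 at an unadjusted p under 0.05 in G93A and WT mice at 90 days, beside 5.56% and 4.07% of all genes, and 1 and 5 at 155 days, beside 4.04% and 2.94%. The interactions of genotype and treatment gave 0 by both, with 1 and 2 at that unadjusted level at 90 and 155 days, beside 2.81% and 2.34% of all genes.

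The genes most like each member were found from the shape of the group means, centred on the log2(CPM + 0.5) scale over the 8 groups. Timp1 was most like Cd68, Ccl3 and Serpina3n, with root mean square differences of 0.18 to 0.20 against a median of 1.87 over 19829 genes. Mmp12 was most like Ccn5 (0.10), Serpina3n (0.14) and Timp1 itself (0.28). For Timp2 the closest were Dag1, Ptger4 and Btg2, for Mmp2 Rasa4, Slc2a10 and Mrc2, and for Mmp14 AC114539.1, Plekha2 and Cav2, at 0.05 to 0.07. Likeness is a description over group means from the same 32 libraries.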

How the data were processed

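Spinal cord RNA of 32 mice was sequenced from stranded mRNA libraries. The authors aligned reads with STAR and deposited raw counts per gene, not normalized; their text names Trimmomatic, HTSeq and GENCODE M10 (GRCm38), while the submitters' processing notes name featureCounts and GRCm39, so the counter and the build are uncertain. Of 42524 gene IDs, 41218 (96.9%) were paired with symbols through GENCODE M21, which gave the GRCm38 positions.

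Counts were analysed with edgeR 4.0.16 in R 4.3.3 (filterByExpr, TMM factors, glmQLFit and glmQLFTest, two-sided, adjusted over all tested genes), the 16 mice of an age in one fit, or all 32 for ages. CPM used TMM-scaled library sizes, and RPKM the joint length of all exons. A fold against groups with at most 3 counts per mouse was set against 3 counts in that group's smallest library, which covers counting error only. The procedure was tested on simulated data. Mice of a group differed beyond sampling noise in all 48 pairs. The labels number them as separate samples and name no batch; p-values measure the spread between them.

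The members and lists were chosen with earlier results of these data known. Named were the 9 members; from each list up to 3 risen genes with the highest and 3 fallen genes with the lowest log2 fold change in untreated G93A against WT mice; any listed gene past the threshold for OKN-007 (0); synapsins, Sod1, Xist and Kdm5d; and the 3 genes most like each member whose group means span over 1 (log2). Other genes are named with their values only, as neighbours of Mmp12 or parts of a marker sum. A gene that these rules name is not reported here, though the counts over lists hold it. Lists were not tested as sets. Alternatives were DESeq2 1.42.0, RLE factors, no filter on low counts, only the compared groups, a caudal Hox score as covariate, leaving out the 2 mice with most liver RNA or each mouse in turn, a log2 fold change of at least 1, a replicate block between ages, CPM on raw totals, and TIMP shares on counts or, chosen after seeing the data, on the mean length of coding transcripts.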

Additional observations from a re-analysis of the deposited data

Results flagged for a closer look

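In 3 of the 72 sets of 4 mice looked at for the members, a single mouse stood far from the others by Dixon's test, and chance alone gives about 3.6. Timp4 was at 231 CPM in mouse 11 of the untreated G93A mice at 155 days, where the next mouse had 84.6 CPM. Timp2 was at 448 CPM in mouse 16 of the G93A mice given OKN-007 at 155 days, where the next had 509 CPM. Mmp2 was at 2.47 CPM in mouse 7 of the WT mice given OKN-007 at 90 days, where the next had 4.19 CPM.

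The difference between G93A and WT untreated mice changed from 90 to 155 days, by edgeR's test of the change itself in all 32 mice, for 4 members, by 4.69 (log2) for Timp1, 0.41 for Timp2, 1.55 for Mmp2 and 1.05 for Mmp14. Without mouse 11 Timp2 did not pass. Over all genes 21.2% passed. The members were chosen with these levels known, and the listed genes below for the size of their difference at 155 days, which is a part of the same change, so the values are a description and support nothing. Among the listed genes the more positive log2 changes were Mmp19 3.11, Adam8 1.63, Adam33 1.32, Adam17 0.74, Adamts1 1.16, Plau 3.63, Plaur 2.71, Cd44 2.47, Spp1 2.16, Tnc 1.95, Fosl1 3.77, Osm 3.10 and Tnf 3.04. The more negative ones were Mmp9 -1.47, Adam22 -0.58, Adam23 -0.79, Spock1 -0.35, Spock3 -0.66, Bcan -0.41 and Acan -0.63.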

How the results depend on the processing

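Of 785 fold changes of members under other settings 770 moved by less than the spread between mice, 15 moved more and 0 reversed; with 1 mouse left out the numbers were 1542, 41 and 1 of 1584. A reversal was counted only for a fold change that passed the threshold in the main fit. Changes of sign in fold changes that did not pass, such as that of Timp4 for OKN-007 given above, were not counted as reversals. The 1 reversal counted was Timp4 between ages in G93A mice, at -0.019 without mouse 11 of 155 days (up to 0.72 without another mouse). Requiring a log2 fold change of at least 1 lowered the members and listed genes past the threshold at 155 days to 3 and 32 untreated, 4 and 27 with OKN-007, and 4 and 33 averaged; with age to 0 and 1 in WT and 3 and 28 in G93A mice; for the genotype difference between ages to 28 listed genes; and averaged at 90 days to 0 listed genes, since small changes are then left out. At 90 days untreated mice gave 2 listed genes with DESeq2, and without the filter on low counts 1 member and 3 listed genes; mice given OKN-007 gave 1 member without the filter. Averaged at 90 days there were 2 members and 2 listed genes with DESeq2, 2 and 3 without the filter, 0 listed genes with RLE factors and 1 member with the Hox score. The share of all genes under each of these settings is not given here, so nothing is read from these counts. With age in WT mice the members numbered 2 and not 1 with DESeq2, the Hox score, only the compared groups, the replicate block, or without the 2 mice with most liver RNA. The cause was not tested. Leaving out each mouse in turn gave 0 to 1 members and 0 to 1 listed genes averaged at 90 days, and 1 to 3 members and 8 to 22 listed genes with age in WT mice, with 8 without WT mouse 4 of 90 days. With the Hox score Timp4 passed with OKN-007 at 155 days, at 0.98 (log2).

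On counts the Timp1 share was 0.0272% in WT and 2.20% in G93A untreated mice at 155 days, and that of Timp2 61.9% and 60.6%. On coding transcript length Timp1 in G93A mice had 5.90%, and Timp2 66.5% in WT and 63.0% in G93A mice. The Timp1 share was higher in G93A mice on all 3 scales. The Timp2 share in untreated mice was lower in G93A mice on all 3, on counts by less than its SD, while with OKN-007 it was lower on RPKM (73.3% and 68.4%), higher on counts (59.4% and 62.0%) and level on coding transcript length (64.0% and 64.1%).

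Sample numbers recur only between ages, for different animals. Their deviations correlated at -0.21 to 0.13 over 16 pairs, and 2 of 16 mice correlated best with their own number, so the numbers do not pair the mice; the replicate block gave 2 members with age in WT, 6 in G93A mice and 5 for the genotype difference between ages. Depth limits Timp1 and Mmp12 in WT mice, with at most 16 reads per mouse.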
